A study of Homo sapiens with 3 samples.

Results

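Polyamine metabolism was followed through 10 genes that were chosen by name: 4 enzymes of synthesis (ODC1, AMD1, SRM and SMS), 3 regulators of ODC1 (AZIN1, OAZ1 and OAZ2) and 3 enzymes of breakdown (SAT1, PAOX and SMOX). All 10 had a row among the 33423 genes of the count data. Drop-seq, which counts the 3′ ends of mRNA molecules in single cells by unique molecular identifiers (UMIs), was run on 3 libraries of human prostate cancer lines. LNCaP-ENZ168 was LNCaP, a line from a lymph node metastasis, after 168 h in 10 µM enzalutamide (ENZ), an antiandrogen. VCaP parental was VCaP, a line from a vertebral metastasis that carries a TMPRSS2-ERG fusion, after 48 h in 0.1% DMSO, the vehicle. VCaP-ENZ48 was VCaP after 48 h in 10 µM enzalutamide. Each group was 1 library of 1 culture, and an LNCaP library without the drug was not analysed here, so line, medium and length of exposure cannot be told apart where LNCaP-ENZ168 is compared with VCaP-ENZ48.

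Putrescine, spermidine and spermine are small cations that bind RNA, DNA and phospholipids, and growing cells need them for translation. ODC1 makes putrescine from ornithine, AMD1 supplies the aminopropyl donor, and SRM and SMS add the aminopropyl groups that give spermidine and spermine, while SAT1 acetylates both for export or for oxidation by PAOX, and SMOX oxidises spermine directly. Polyamines act back on the pathway through the antizymes OAZ1 and OAZ2, which send ODC1 protein to the proteasome, and through the antizyme inhibitor AZIN1, which binds antizyme in place of ODC1. Prostate epithelium makes and secretes large amounts of polyamines, and polyamine enzymes in this tissue respond to androgen.

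After removal of shallow and mitochondria-rich barcodes, 944 cells of LNCaP-ENZ168, 997 of VCaP parental and 947 of VCaP-ENZ48 held 6313283, 19515202 and 14301287 UMIs. The median cell had 5389, 17817 and 11224 UMIs, in the same order. The epithelial markers KLK2, KRT8, KRT18 and EPCAM were present in every library. KLK2 was unequal, at 27.1 UMIs per 1000000 (CPM) in LNCaP-ENZ168, 1554 CPM in VCaP parental and 3053 CPM in VCaP-ENZ48. ERG had 0 UMIs in LNCaP-ENZ168 and was at 105 and 57.1 CPM in the VCaP libraries. The leukocyte marker PTPRC, the endothelial marker PECAM1 and the fibroblast marker COL1A1 were at 0 to 1.58 CPM. Each pair of libraries shared 1 cell barcode. Because every group was 1 library, differences between groups could not be tested: the 95% intervals below cover counting error only and say nothing of the spread between cultures.

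AMD1, the enzyme that forms decarboxylated S-adenosylmethionine (chromosome 6, 110874770 to 110898879, plus strand, GRCh38), was the most abundant synthesis gene in all 3 libraries. Its summed level was 715 CPM (694 to 736) in LNCaP-ENZ168, 789 CPM (776 to 801) in VCaP parental and 758 CPM (743 to 772) in VCaP-ENZ48. SMS, the spermine synthase (chromosome X, 21940709 to 21994837, plus strand), was at 106 CPM (98.2 to 114), 268 CPM (261 to 276) and 205 CPM (197.6 to 213). Both genes were highest in VCaP parental and lowest in LNCaP-ENZ168 with intervals that did not overlap, and SMS spanned the wider range. ODC1, the first enzyme of the pathway (chromosome 2, 10439968 to 10448327, minus strand), was at 130 CPM (121 to 139), 40.9 CPM (38.1 to 43.8) and 39.6 CPM (36.4 to 43.0), so the VCaP libraries could not be separated from each other and LNCaP-ENZ168 lay above both. SRM, the spermidine synthase (chromosome 1, 11054584 to 11060020, minus strand), was the least abundant synthesis gene, with 30.1 CPM (26.0 to 34.7), 12.3 CPM (10.8 to 14.0) and 17.9 CPM (15.8 to 20.2). Because a UMI is counted once per molecule at its 3′ end, levels of different genes were compared without division by gene length. AMD1 gave 5.51 UMIs for each ODC1 UMI in LNCaP-ENZ168, 19.3 in VCaP parental and 19.1 in VCaP-ENZ48, and SMS gave 3.53, 21.8 and 11.4 UMIs for each SRM UMI.

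Start regions of ODC1 and SRM are shown because these are the members whose start windows hold the E-box CACGTG. The E-box is a palindrome that reads the same on both strands and is bound by MYC and related factors. RefSeq windows (GRCh38.p14, 250 bases before to 50 after a start) were found for 7 of the 10 members, 10 windows in all, and not for AZIN1, PAOX or SMOX. The E-box was present in 2 of these 10 windows and in 7.26% of 35116 windows of all genes. In ODC1 it occurred at 2 places around the second annotated start, inside the first intron of the main transcript, and in SRM once upstream of the start. The letters TATAA, on either strand, were present in 4 windows, against 20.4% of all windows, and belonged to ODC1, OAZ1 and a pair of overlapping AMD1 windows. A match of letters is a description only, and factor binding was not measured. The stretches are written 5′ to 3′ on the gene's strand, with the E-box in capitals.
ODC1, chr2:10448024-10448053: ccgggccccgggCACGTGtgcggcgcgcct
ODC1, chr2:10447990-10448019: ggcctgcggagaCACGTGgtcgccgagcgg
SRM, chr1:11060200-11060229: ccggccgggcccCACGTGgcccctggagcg

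OAZ1, the main antizyme (chromosome 19, 2269509 to 2273490, plus strand), was the most abundant of the 10 genes in LNCaP-ENZ168 and second to AMD1 in both VCaP libraries. It reached 1556 CPM (1525 to 1587) in LNCaP-ENZ168, 629 CPM (618 to 640) in VCaP parental and 675 CPM (662 to 689) in VCaP-ENZ48. Rows of genes that overlap OAZ1, which include JSRP1 on the other strand, held 431 UMIs over the 3 libraries. OAZ2, a second antizyme (chromosome 15, 64687573 to 64703281, minus strand), was at 123 CPM (114 to 132), 73.4 CPM (69.7 to 77.3) and 90.1 CPM (85.3 to 95.2). OAZ1 thus gave 12.7, 8.57 and 7.49 UMIs for each OAZ2 UMI. AZIN1, which opposes both antizymes, was at 106 CPM (97.8 to 114), 84.5 CPM (80.5 to 88.7) and 70.0 CPM (65.7 to 74.5), lowest in VCaP-ENZ48. ODC1 had more UMIs than AZIN1 in LNCaP-ENZ168, with a ratio of 1.23 (1.11 to 1.36), and fewer in VCaP parental and VCaP-ENZ48, with ratios of 0.484 (0.444 to 0.527) and 0.565 (0.509 to 0.627).

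Antizyme mRNA is translated in full only when ribosomes shift frame at a stop codon, a step that polyamines promote, so the UMIs counted here are transcripts and not antizyme protein. The coding bases around that stop are shown because they are the part that OAZ1 and OAZ2 share in this control. The annotated coding sequence skips 1 base, at position 2271443 of chromosome 19 in OAZ1 and position 64691515 of chromosome 15 in OAZ2, which is the T of the stop codon. The stop follows 68 codons in OAZ1 and 32 in OAZ2. Of 43 bases around the skipped base, 37 were identical between the genes. The stop codon of the first frame is in capitals, on the gene's strand.
OAZ1, chr19:2271422-2271464: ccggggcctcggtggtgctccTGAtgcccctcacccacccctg
OAZ2, chr15:64691494-64691536: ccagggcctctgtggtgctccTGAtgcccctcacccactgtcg

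SAT1, the rate-limiting acetyltransferase of polyamine breakdown (chromosome X, 23783173 to 23786210, plus strand), was the breakdown gene that carried nearly all counts. It was at 524 CPM (506 to 542) in LNCaP-ENZ168, 131 CPM (126 to 136) in VCaP parental and 448 CPM (437 to 459) in VCaP-ENZ48. The VCaP parental level was the low value, and among all detected genes SAT1 ranked 1235 of 27329 there, against 250 of 28856 in VCaP-ENZ48 and 230 of 24160 in LNCaP-ENZ168. PAOX, which oxidises acetylated polyamines, had 7, 3 and 2 UMIs in the 3 libraries. SMOX, the spermine oxidase, had 12, 30 and 34 UMIs, or 1.90 CPM (0.982 to 3.32), 1.54 CPM (1.04 to 2.19) and 2.38 CPM (1.65 to 3.32), and its intervals overlapped. Both oxidases were below the 10 CPM mean set for a comparison of libraries. For PAOX in LNCaP-ENZ168 over VCaP-ENZ48, at 1.11 against 0.14 CPM, the log2 ratio of counts had an interval from 0.59 to 6.29, which rests on 7 and 2 UMIs, and between the VCaP libraries the intervals of PAOX and SMOX contained 0. The 250 bases before the RefSeq start of SAT1 are shown because SAT1 is the member that differed most between the VCaP libraries. They held neither the E-box nor TATAA, and carry no capitals.
SAT1, chrX:23782923-23783172: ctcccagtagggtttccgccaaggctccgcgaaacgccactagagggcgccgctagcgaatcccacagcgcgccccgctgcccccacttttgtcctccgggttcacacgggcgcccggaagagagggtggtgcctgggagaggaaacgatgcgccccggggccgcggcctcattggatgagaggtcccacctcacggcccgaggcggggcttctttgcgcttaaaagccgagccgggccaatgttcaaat

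**Figure D1:**
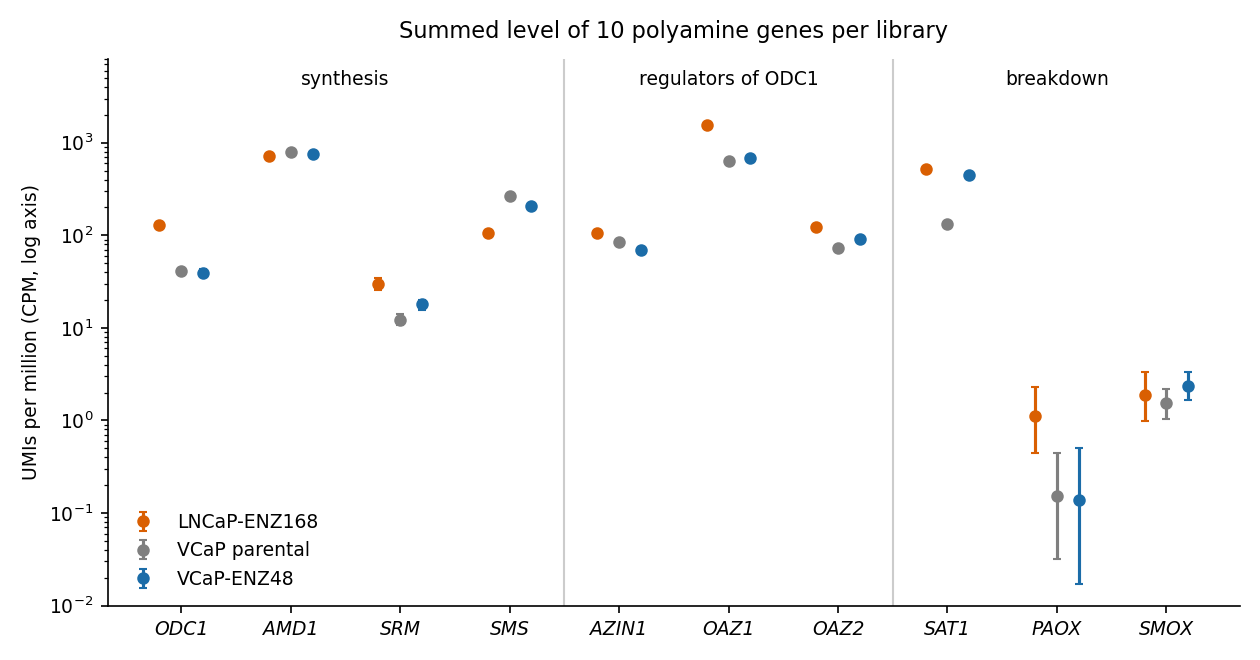
Summed level of each gene in CPM (log axis) in the 3 libraries, ordered by role, with points for the libraries and bars for exact Poisson 95% intervals, which are narrower than the points for abundant genes. SAT1 was at 131 CPM in VCaP parental and at 448 and 524 CPM in the enzalutamide-treated libraries, while AMD1 stayed between 715 and 789 CPM and PAOX and SMOX lay at or under 2.38 CPM.

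Within LNCaP-ENZ168 the order of the levels was OAZ1, AMD1, SAT1, ODC1, OAZ2, SMS, AZIN1, SRM, SMOX and PAOX. The counting intervals of ODC1 and OAZ2, of OAZ2 and SMS, of SMS and AZIN1, and of SMOX and PAOX overlapped. Within VCaP parental the order was AMD1, OAZ1, SMS, SAT1, AZIN1, OAZ2, ODC1, SRM, SMOX and PAOX, and no neighbours had overlapping intervals. In VCaP-ENZ48 SAT1 stood above SMS and OAZ2 above AZIN1, and again no neighbours overlapped. SAT1 gave 0.489 UMIs (0.467 to 0.513) for each SMS UMI in VCaP parental, 2.19 (2.09 to 2.28) in VCaP-ENZ48 and 4.94 (4.54 to 5.37) in LNCaP-ENZ168.

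Setting VCaP-ENZ48 against VCaP parental asks which polyamine genes differed after 48 h of enzalutamide in 1 line. SAT1 was 3.39-fold higher in VCaP-ENZ48, a log2 ratio of CPM + 1 of 1.76 (1.70 to 1.84, the interval of the ratio of counts), and 1.85% of the 7729 genes that averaged 10 CPM or more over the pair had a ratio as high or higher. SAT1 was the 1 member of the 8 that could be compared that was at least 1.5-fold higher, against 15.6% of all genes compared, and 0 of 8 were at least 1.5-fold lower, against 17.9% of all genes. The median log2 ratio of the 8 members was 0.03 and that of all genes -0.07. Among synthesis genes SRM was 1.42-fold higher (log2 ratio 0.51, 0.28 to 0.80), below the threshold, and SMS was 1.31-fold lower (log2 ratio -0.39, -0.45 to -0.32). ODC1 had a log2 ratio of -0.05 with an interval from -0.21 to 0.11 that contained 0. Over the alternatives ODC1 ranged from -0.33 under TMM scaling to 0.11 in cells called G1. AMD1 was at -0.06, and its sign turned to 0.060 when only barcodes ending in a base were kept and to 0.077 without mitochondrial and ribosomal protein genes. The larger moves of AMD1 were downward, to -0.39 in cells called G1, -0.35 under TMM and -0.29 under median-of-ratios scaling. Of the regulators, AZIN1 was at -0.27 (-0.39 to -0.16) and OAZ2 at 0.29 (0.19 to 0.41), while OAZ1 was at 0.10 (0.06 to 0.14). Under TMM and median-of-ratios scaling OAZ1 turned to -0.19 and -0.13. With these scalings OAZ2 fell to 0.005 and 0.065, and AZIN1 to -0.56 and -0.50. No synthesis gene or regulator differed by 1.5-fold under the main scaling.

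TMM scaling, which sets library totals from a trimmed mean of the ratios of all genes, moved the median log2 ratio of all genes in this comparison from -0.07 to -0.34, and the share of all genes at least 1.5-fold higher and lower from 15.6% and 17.9% to 10.4% and 32.4%. Relative to the median of all genes, SAT1 was higher by 1.83 on the log2 scale, SRM by 0.57, OAZ2 by 0.36 and OAZ1 by 0.17, and SMS was at -0.32 and AZIN1 at -0.20. SMS passed the threshold for lower genes under TMM, with a log2 ratio of -0.68, and SRM that for higher genes among barcodes ending in a base, with 0.86. The SAT1 ratio stayed between 1.46 and 1.90 under the 12 alternatives.

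**Figure D2:**
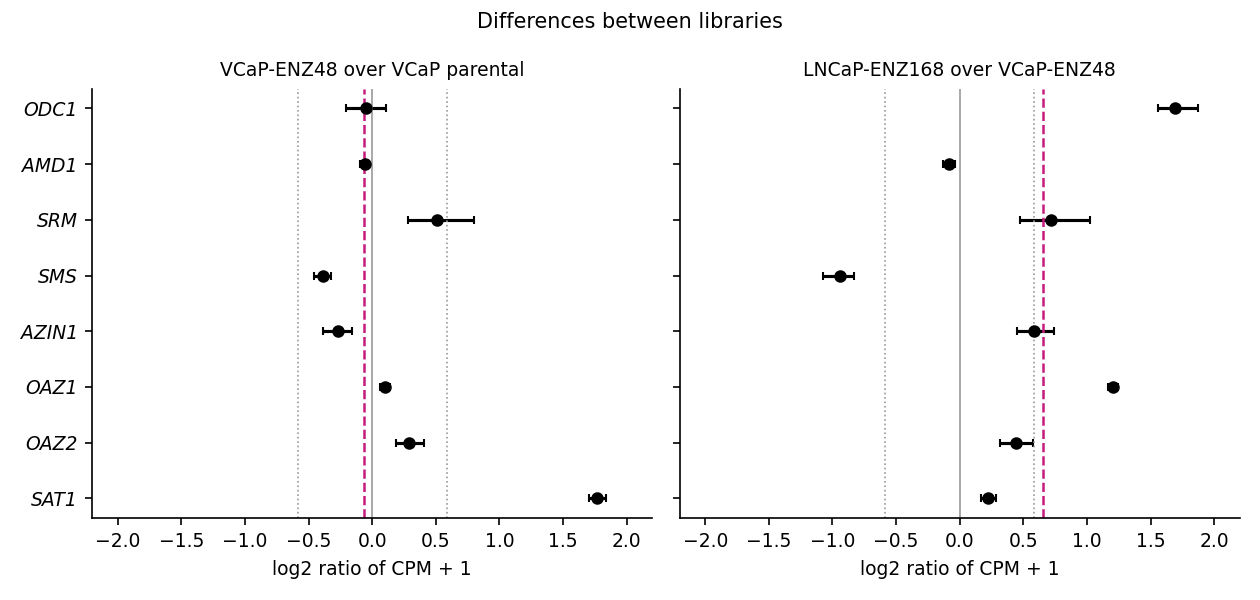
Log2 ratio of CPM + 1 for the 8 members that averaged 10 CPM or more, in VCaP-ENZ48 over VCaP parental and in LNCaP-ENZ168 over VCaP-ENZ48, with exact conditional 95% intervals of the ratio of counts as bars. Dotted lines mark 1.5-fold and the dashed line the median of all genes (-0.07 and 0.65). SAT1 at 1.76 is the point far from the others in the VCaP pair, and ODC1 at 1.69 and SMS at -0.94 are the outermost points in the comparison of lines.

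The comparison of LNCaP-ENZ168 with VCaP-ENZ48 sets the enzalutamide-treated libraries side by side. ODC1 was 3.22-fold higher in LNCaP-ENZ168, a log2 ratio of 1.69 (1.56 to 1.87), and OAZ1 2.302-fold higher, a log2 ratio of 1.203 (1.16 to 1.24). SMS was 1.92-fold lower, a log2 ratio of -0.94 (-1.07 to -0.83). In all, 4 of the 8 members were at least 1.5-fold higher in LNCaP-ENZ168 (ODC1, OAZ1, SRM and AZIN1), against 53.1% of all genes compared, and 1, SMS, was at least 1.5-fold lower, against 15% of all genes. SRM had a log2 ratio of 0.72 (0.47 to 1.03) and AZIN1 one of 0.59 (0.45 to 0.74), which is just past the threshold, and both lay close to the median of all genes, 0.65. Relative to that median ODC1 was higher by 1.03 on the log2 scale and OAZ1 by 0.55, whereas SMS was at -1.60, AMD1 at -0.74 and SAT1 at -0.43. SAT1 itself had a log2 ratio of 0.23 (0.17 to 0.29), which turned to -0.30 under TMM scaling, -0.27 under median-of-ratios scaling and -0.054 without mitochondrial and ribosomal protein genes, so no direction is given for it. OAZ2 was at 0.44 and turned to -0.085 under TMM and -0.049 under median-of-ratios scaling. TMM moved the median of all genes to 0.10 and the shares of genes higher and lower to 30.0% and 25.4%, and left ODC1 and OAZ1 as the 2 higher members. Both comparisons use VCaP-ENZ48, so they are not independent of each other.

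Synthesis was set against breakdown inside each library, where the scaling between libraries has no part. In LNCaP-ENZ168 the 4 synthesis genes summed to 6192 UMIs and the 3 breakdown genes to 3327. The sums were 21667 and 2595 UMIs for VCaP parental and 14589 and 6442 UMIs for VCaP-ENZ48. Synthesis transcripts outnumbered breakdown transcripts 8.35 to 1 in VCaP parental, 2.26 to 1 in VCaP-ENZ48 and 1.86 to 1 in LNCaP-ENZ168. On the log2 scale these ratios were 3.06 (3.00 to 3.12), 1.18 (1.14 to 1.22) and 0.90 (0.84 to 0.96). VCaP-ENZ48 lay 1.88 below VCaP parental, a difference of -1.88 (-1.96 to -1.81), and LNCaP-ENZ168 differed from VCaP-ENZ48 by -0.28 (-0.36 to -0.21).

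The sums rest on 1 gene on each side. SAT1 made up 98.7% to 99.4% of the breakdown UMIs, and AMD1 71.0% to 74.3% of the synthesis UMIs. The synthesis sum was 981, 1110 and 1020 CPM, a narrow range, while the breakdown sum was 527, 133 and 450 CPM, so the difference between the VCaP libraries followed SAT1. Without SAT1 the difference between the VCaP libraries was -0.70, for which no interval was computed. That value rests on 30 SMOX and 3 PAOX UMIs in VCaP parental and on 34 and 2 in VCaP-ENZ48. These are too few to show a shift beyond SAT1. With the mean of the log2 levels of the genes, which gives PAOX and SMOX equal weight, the difference was -0.72. By that mean LNCaP-ENZ168 and VCaP-ENZ48 differed by 0.047, with the opposite sign.

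**Figure D3:**
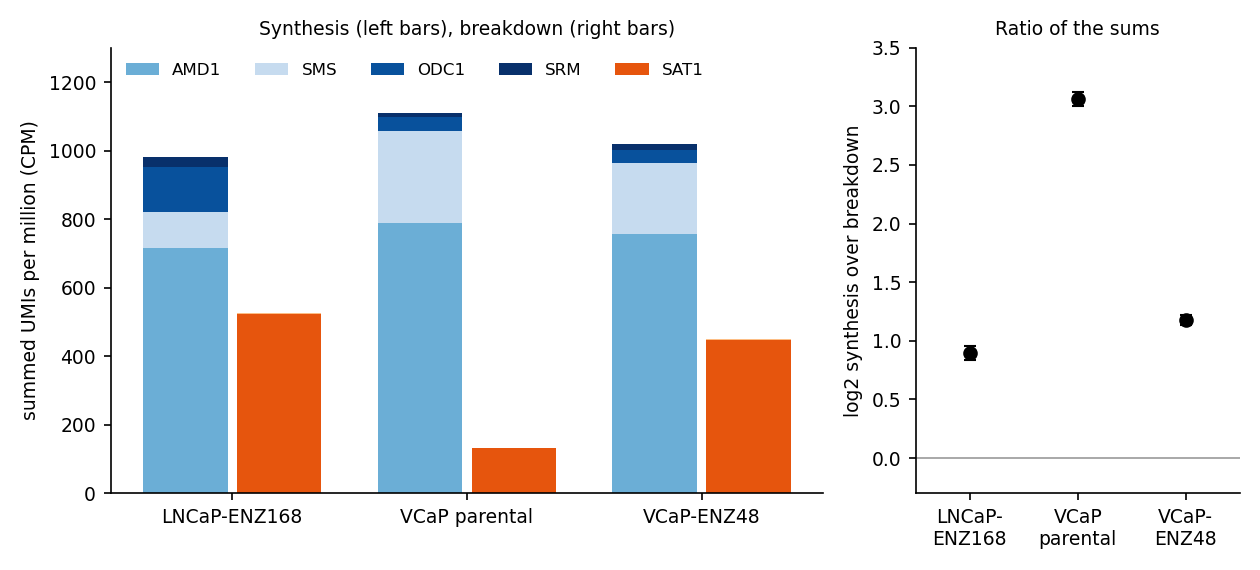
Stacked bars give the summed level in CPM of the synthesis genes (left bar of each library) and breakdown genes (right bar, almost all SAT1, with SMOX and PAOX too small to see), and points give the log2 ratio of the sums with exact conditional 95% intervals. The synthesis bars lie between 981 and 1110 CPM and the breakdown bars at 527, 133 and 450 CPM, so VCaP parental has the highest ratio, 3.06. Bar heights depend on the scaling between libraries, and the ratio of the sums does not.

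Detection in single cells was compared after each cell was thinned to 2000 UMIs, which left 943 cells of LNCaP-ENZ168, 997 of VCaP parental and 917 of VCaP-ENZ48. SAT1 was detected in 20.8% (18.3% to 23.4%) of VCaP parental cells, in 51.9% (48.6% to 55.2%) of the cells in VCaP-ENZ48, and in 59.6% (56.4% to 62.7%) of those in LNCaP-ENZ168. Without thinning the shares were 79.0%, 86.5% and 85.0%, much closer together, and the VCaP parental cells were the deepest. AMD1 was detected in 75.7%, 73.6% and 70.3% of thinned cells in that order of libraries, and SMS in 41.7%, 30.0% and 17.3%. AMD1 was thus spread over most cells of every library, and SMS detection ran in the order of its summed level. OAZ1 was found in 71.0% and 70.8% of thinned VCaP parental and VCaP-ENZ48 cells and in 94.2% (92.5% to 95.6%) of LNCaP-ENZ168 cells. ODC1 was found in 8.22% and 8.18% of VCaP parental and VCaP-ENZ48 cells and in 23.1% (20.5% to 25.9%) of LNCaP-ENZ168 cells. For OAZ1 and ODC1, then, the VCaP libraries overlapped and LNCaP-ENZ168 lay above them. SRM was found in 2.71%, 3.16% and 6.36% of cells, AZIN1 in 15.9%, 12.4% and 19.6%, and OAZ2 in 12.3%, 15.7% and 23.2%. PAOX had a UMI in 0 of 997 thinned VCaP parental cells, where a floor of 3 cells allows a share of up to 0.301% of cells with a UMI at this depth (before thinning 3 cells held one), and SMOX in 0.201% to 0.636% of cells of each library. No cell type that should lack these genes was present, so the share that free RNA gives was not measured.

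Cells with 2 or more SAT1 UMIs made up a larger share of all cells in the treated libraries. After thinning, 3.91% of VCaP parental cells held 2 or more SAT1 UMIs, against 20.8% of VCaP-ENZ48 and 30.5% of LNCaP-ENZ168 cells, and the highest cell held 4, 9 and 9. The variance of SAT1 UMIs over the cells divided by their mean was 1.21, 1.66 and 1.56, above the value for SMS (1.04, 1.13 and 1.05) and, in the treated libraries, for AMD1 (1.23, 1.27 and 1.38). Counting alone gives a value near 1 for this measure. For the same relative spread between cells it rises with the mean, and the mean of thinned SAT1 UMIs was 0.256, 0.883 and 1.15. The values therefore do not show that cells differed more in SAT1 in the treated libraries. Cells with more breakdown than synthesis UMIs made up 4.71% (3.48% to 6.22%) of VCaP parental cells, with 17.8% (15.4% to 20.4%) in VCaP-ENZ48 and 24.3% (21.6% to 27.2%) in LNCaP-ENZ168. The median thinned cell had 2 synthesis UMIs in every library, and 0, 1 and 1 breakdown UMIs. At such low counts, counting alone gives some cells more breakdown than synthesis UMIs, and that share was not computed. These shares therefore do not show a separate group of cells in which breakdown prevails.

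**Figure D4:**
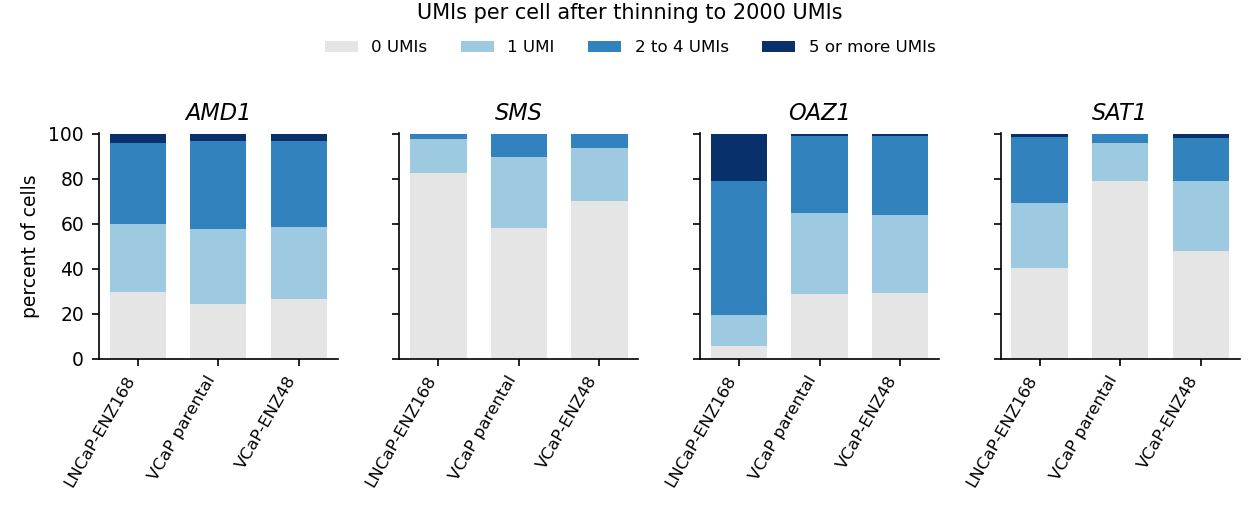
Percent of thinned cells (2000 UMIs each) of each library with 0, 1, 2 to 4, and 5 or more UMIs of AMD1, SMS, OAZ1 and SAT1. The share with 0 SAT1 UMIs is 79.2% in VCaP parental, 48.1% in VCaP-ENZ48 and 40.4% in LNCaP-ENZ168, while the AMD1 bars are nearly alike.

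The libraries differed in their cell cycle calls, which rest on scores over S and G2M gene lists alone. Seurat called 290 of 997 VCaP parental cells G1, 777 of 917 VCaP-ENZ48 cells and 737 of 943 LNCaP-ENZ168 cells, so 70.9%, 15.3% and 21.8% were called S or G2M, and 0 of the 10 members were in the S or G2M gene lists. SAT1 was lower in cells called S or G2M than in G1 cells of the same library: 117 against 171 CPM in VCaP parental, 331 against 472 CPM in VCaP-ENZ48 and 300.2 against 595 CPM in LNCaP-ENZ168. The log2 ratios of cells called S or G2M over G1 cells were -0.55 (-0.67 to -0.43), -0.51 (-0.62 to -0.40) and -0.98 (-1.13 to -0.84). ODC1 was the other way, at 165 against 119 CPM in LNCaP-ENZ168 (log2 ratio 0.48, 0.26 to 0.70) and 42.8 against 35.8 CPM in VCaP parental (0.25, 0.02 to 0.50). For VCaP-ENZ48 the ODC1 interval contained 0 (0.21, -0.10 to 0.52). AMD1 was lower in the S or G2M cells of VCaP parental, at 712 against 1000 CPM (log2 ratio -0.49, -0.54 to -0.44), and its intervals contained 0 in VCaP-ENZ48 and LNCaP-ENZ168. OAZ2 was also lower in these VCaP parental cells, with a log2 ratio of -0.32 (-0.49 to -0.16).

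Comparisons of the VCaP libraries within a call gave SAT1 values below the pooled 1.76. Among G1 cells SAT1 was at 171 CPM in VCaP parental and 472 CPM in VCaP-ENZ48, a log2 ratio of 1.46 (1.36 to 1.57), and among cells called S or G2M the log2 ratio was 1.498 (1.38 to 1.63). AMD1 differed in G1 cells, at 1000 CPM in VCaP parental and 761 CPM in VCaP-ENZ48, a log2 ratio of -0.39 (-0.44 to -0.34), further apart than the pooled -0.06 (-0.09 to -0.02). In cells called S or G2M the AMD1 ratio was 0.07 (-0.01 to 0.14). SMS was at -0.50 (-0.60 to -0.41) in G1 cells and -0.27 (-0.40 to -0.14) in the others, and OAZ2 at 0.06 and 0.42. Synthesis over breakdown in G1 cells was 7.69 in VCaP parental, 2.15 in VCaP-ENZ48 and 1.60 in LNCaP-ENZ168, and in cells called S or G2M 8.71, 3.08 and 3.46. The order of the enzalutamide-treated libraries was thus opposite in cells called S or G2M, where the intervals of 3.08 (2.84 to 3.34) and 3.46 (3.12 to 3.85) overlapped. ODC1 stayed higher in LNCaP-ENZ168 than in VCaP-ENZ48 in both, with log2 ratios of 1.59 (1.44 to 1.80) in G1 and 1.86 (1.55 to 2.22) in the others. Of the cells called, 58 to 81 per library lay within 0.02 of the limit between G1 and the other calls. Cells near the limit between S and G2M were not counted, and only 22 VCaP-ENZ48 cells were called G2M.

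**Figure D5:**
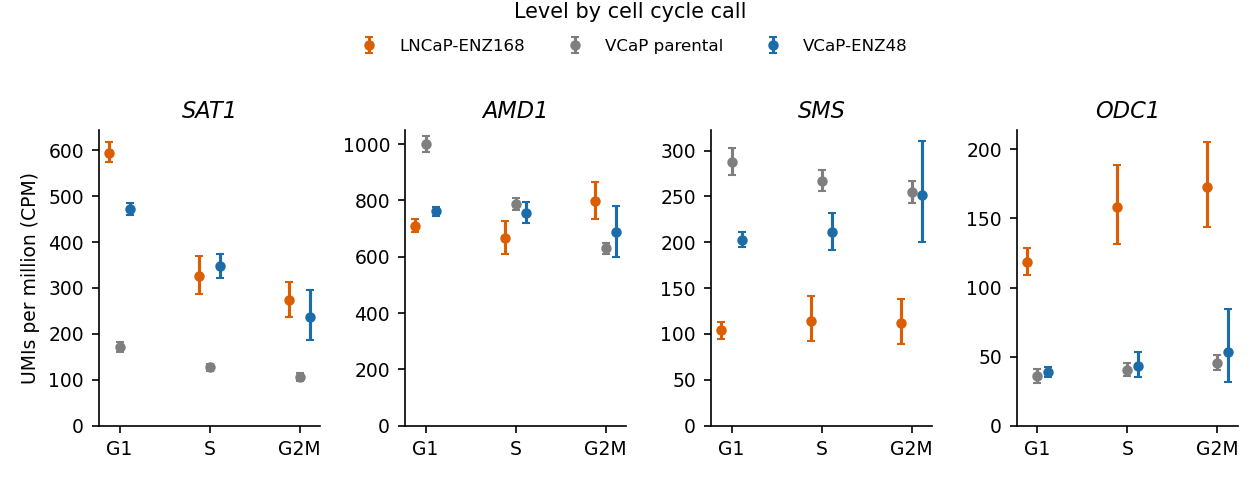
Level in CPM of SAT1, AMD1, SMS and ODC1 in cells called G1, S and G2M in each library, with exact Poisson 95% intervals as bars. In each library SAT1 is highest in G1 cells (595 CPM in LNCaP-ENZ168, 472 CPM in VCaP-ENZ48, and in VCaP parental 171 CPM), and AMD1 in VCaP parental goes from 1000 CPM in G1 to 629 CPM in G2M.

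Cell barcodes that ended in N in place of a base made up 205 of the kept cells in LNCaP-ENZ168, 859 in VCaP parental and 820 in VCaP-ENZ48. The SAT1 log2 ratio of the VCaP libraries was 1.82 (1.75 to 1.90) among these barcodes and 1.52 (1.37 to 1.68) among the others. ODC1 in LNCaP-ENZ168 over VCaP-ENZ48 was at 1.79 (1.55 to 2.08) and 1.59 (1.33 to 1.90). SAT1 differed between the libraries at both depths: cells at or below the median depth had 559 CPM in LNCaP-ENZ168, 122 CPM in VCaP parental and 485 CPM in VCaP-ENZ48, and cells above it 508, 136 and 439 CPM. AMD1 in LNCaP-ENZ168 was at 793 CPM in cells at or below the median mitochondrial share and 628 CPM in cells above it, and in VCaP parental at 742 and 840 CPM. Across thinned cells, Pearson r between pairs of members lay between -0.08 and 0.09 in each library, over all 45 pairs in LNCaP-ENZ168. PAOX had 0 UMIs in the thinned cells of both VCaP libraries, so its pairs had no measurable r there. No gene of at least 50 CPM reached r = 0.3 with ODC1 or SAT1. At this depth counting error lowers r, and 76.9% to 91.8% of thinned cells per library held 0 ODC1 UMIs. The low values of r therefore cannot show whether these genes vary together between cells.

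A wider list of 26 genes around the pathway held 19 that averaged 10 CPM or more. In VCaP-ENZ48 over VCaP parental 4 of the 19 were at least 1.5-fold higher and 2 at least 1.5-fold lower, against 15.6% and 17.9% of all genes, with a median log2 ratio of -0.03 beside -0.07 over all genes. The higher genes, with VCaP parental first, were MRI1 of methionine salvage (14.96 to 32.5 CPM, 2.10-fold), the deoxyhypusine synthase DHPS, which uses spermidine (35.6 to 60.5 CPM, 1.68-fold), the ornithine aminotransferase OAT (13.1 to 22.5 CPM, 1.67-fold) and the vesicular transporter SLC18B1 (8.56 to 13.7 CPM, 1.54-fold). The lower genes were APIP and ENOPH1, enzymes of the same salvage route that regenerates methionine from the by-product of SRM and SMS, at 84.9 CPM in VCaP parental against 45.6 CPM for APIP and 165 against 90.1 CPM for ENOPH1. Methionine salvage thus held both a higher gene and 2 lower ones. In LNCaP-ENZ168 over VCaP-ENZ48 8 of the 19 were higher and 5 lower, against 53.1% and 15% of all genes, with a median of 0.34 beside 0.65 over all genes. The acetyltransferase homolog SAT2 was at 170 against 55.4 CPM, the transporter subunit SLC3A2 at 184 against 61.0 CPM, the arginase ARG2 at 253 against 122 CPM and AHCY at 259 against 143 CPM. ENOPH1, MTAP, ALDH18A1 and EIF5A, which carries hypusine, were 1.58-fold to 1.67-fold higher, which is at most 0.09 on the log2 scale above the median of all genes. The agmatinase AGMAT had 1 UMI in LNCaP-ENZ168 and 326 in VCaP-ENZ48, with an interval of the log2 ratio from -12.48 to -4.68. OAT was at 6.65 against 22.5 CPM, SLC18B1 at 6.34 against 13.7 CPM, APIP at 25.03 against 45.6 CPM and the polyamine transporter ATP13A3 at 28.8 against 48.9 CPM.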

How the data were processed

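The data were Drop-seq UMI counts of 3 libraries. The authors aligned reads to GRCh38 with STAR and made the deposited counts per gene and barcode with Picard and the Drop-seq tools on a Gencode annotation. Whether counting used strand is not given in the sources used here. A gene without a row in a library was counted as 0.

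Barcodes with at least 300 genes, 500 UMIs and at most 25% mitochondrial UMIs were kept, doublets were not called, and UMIs were summed per library and scaled to CPM. Ratios are log2 ratios of CPM + 1, among genes that averaged 10 CPM or more over the pair. Levels carry exact Poisson, ratios exact conditional and shares exact Clopper-Pearson 95% intervals. Cells were thinned to 2000 UMIs for shares and for phase calls (Seurat 5.3.0, 43 S and 54 G2M genes). TMM factors came from edgeR 4.0.16, and scipy 1.17.1 gave the intervals. The ratio script was tested on simulated counts. Gene positions are from a Gencode release on GRCh38 that may differ from the authors'. The named genes were all 10 members, genes of the wider list past 1.5-fold, and genes with r of at least 0.3. Members and lists were chosen with earlier results of these data known.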

Additional observations from a re-analysis of the deposited data

How the results depend on the processing

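No paired analysis was possible because there was 1 library for every group, and with 1 culture per group the spread between cultures is not measured. Of 240 member ratios under the alternatives, 177 stayed within the counting interval of the reported value, 54 moved past it and 9 reversed, all named in the report: AMD1 in the VCaP pair (0.060 and 0.077), OAZ1 in the VCaP pair (-0.19 and -0.13), and in LNCaP-ENZ168 over VCaP-ENZ48 OAZ2 (-0.085 and -0.049) and SAT1 (-0.30, -0.27 and -0.054).

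In the VCaP pair the count of higher members became 2, with SRM added to SAT1, among barcodes ending in a base and without mitochondrial and ribosomal protein genes, and the count of lower members became 1, SMS, under TMM and under median-of-ratios scaling. In LNCaP-ENZ168 over VCaP-ENZ48 the count of higher members was 2 under TMM, under median-of-ratios scaling and without mitochondrial and ribosomal protein genes, and the count of lower members was 2 under TMM, SMS and AMD1. The higher members were 3 without a barcode filter, with at most 15% mitochondrial UMIs and with a pseudocount of 5 CPM, where AZIN1 missed the threshold (0.56 to 0.58), in G1 cells, where SRM missed it (0.58), and at a minimum of 50 CPM, where SRM was left out.

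Log2 synthesis over breakdown in LNCaP-ENZ168 was 0.68 in G1 cells, 3.17 by the mean of log2 levels, 8.35 without SAT1 and 1.04 with AZIN1 added to synthesis. In VCaP parental it was 2.92 among barcodes ending in a base, 2.94 in G1 cells, 3.84 by the mean, 9.36 without SAT1 and 3.17 with AZIN1. In VCaP-ENZ48 it was 1.09 without barcodes above 3 times the median depth and with cells weighted equally, 1.37 among barcodes ending in a base, 1.10 in G1 cells, 3.12 by the mean, 8.66 without SAT1 and 1.28 with AZIN1. VCaP-ENZ48 minus VCaP parental was -1.99 without the deep barcodes, -1.56 among barcodes ending in a base, -1.97 with cells weighted equally, -0.72 by the mean and -0.70 without SAT1. All values without SAT1 rest on the few UMIs of PAOX and SMOX. LNCaP-ENZ168 minus VCaP-ENZ48 was -0.21 without the deep barcodes, -0.51 among barcodes ending in a base, -0.42 in G1 cells and 0.047 by the mean, and in cells called S or G2M the ratios behind it also stood in the opposite order; the cause was not tested. Of 120 shares of cells, 81 moved, as another thinning depth or none changes them by construction.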
